A study of Mus musculus with 12 samples.

Results

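Bile acids are made from cholesterol in the liver, pass into the gut, and are taken up again, mostly in the last stretch of the small intestine. The sodium-coupled carrier Slc10a2 brings them into the epithelial cell, and Fabp6, a cytosolic binding protein, carries them through it. Inside the cell they activate the nuclear receptor FXR, the product of Nr1h4, which switches on Fgf15, a hormone that lowers bile acid synthesis in the liver, and Nr0b2, a corepressor also called SHP. Cyp27a1, a mitochondrial P450, starts the alternative route of bile acid synthesis. The colon takes up the remaining bile acids largely without the ileal carrier, and its epithelium carries FXR. These 6 genes were followed here, chosen by name from the array annotation. Each of the 6 had 1 probe set, so 6 of the 22626 probe sets tested, and 6 of 12393 named genes, are described, and none of the 6 values could be checked against another probe set of the same gene.

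The values came from 12 Affymetrix 430A arrays of scraped colon epithelium from male C57BL/6 mice aged 6 to 8 weeks. There were 4 groups of 3 arrays: POR-null mice on quercetin, POR-null mice on the control diet, wild type mice on quercetin and wild type mice on the control diet. POR-null mice lack cytochrome P450 reductase, the electron donor of the microsomal P450 enzymes. The line is known from the literature to lose it in hepatocytes, so its liver makes little bile acid while its gut keeps the enzyme, and the deleted gene itself is not analysed here. All mice had 14 days on a soya-free powdered diet and were killed 24 h later, having had quercetin or the same powder without it. Quercetin, a plant flavonol, was mixed in at 6200 ppm, labelled as 7 mg for each mouse. RNA of 3 mice was pooled for each array, so that an array is a pool, a group holds 9 mice, and the spread between arrays is a spread between pools.

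Array medians lay between 5.90 and 5.98 log2 units, and correlations between pairs of arrays ran from 0.981 to 0.995. Markers of colon epithelium were bright, with list means of 11.05 to 11.47 for 10 colonocyte genes and 11.63 to 12.13 for 9 goblet cell genes. Other tissues differed between pools: 13 pancreatic acinar genes averaged 9.74 on POR-null quercetin array 2 and 8.83 on wild type control array 1, against 6.00 to 7.39 on the other 10 arrays. Smooth muscle genes (12) averaged 5.98 to 9.50, with the highest on wild type quercetin array 3. In RNA from mixed tissue, fewer cells of a type and less RNA per cell cannot be told apart.

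The promoters of Fabp6 and Slc10a2, the members that varied most between pools, are shown as 300 bases of RefSeq sequence (GRCm38.p6), from 250 before to 50 after the transcript start, read along the gene. Capitals mark letters that match a searched motif with up to 2 mismatches on either strand. In Fabp6 (chr11:43601513-43601812, minus strand) they mark a pair of matches to the inverted repeat to which FXR binds together with RXR, AGGTCA followed after any base by its reverse complement TGACCT. In Slc10a2 (chr8:5105238-5105537, minus strand) they mark a match to the motif of HNF1, a transcription factor of gut and liver, GTTAAT followed after any base by its reverse complement ATTAAC.
Fabp6: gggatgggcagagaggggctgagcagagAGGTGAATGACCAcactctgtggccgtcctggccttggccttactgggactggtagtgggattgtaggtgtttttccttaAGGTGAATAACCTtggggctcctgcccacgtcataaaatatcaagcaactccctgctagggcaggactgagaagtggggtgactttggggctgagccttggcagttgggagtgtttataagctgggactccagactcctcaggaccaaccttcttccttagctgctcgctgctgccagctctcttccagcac
Slc10a2: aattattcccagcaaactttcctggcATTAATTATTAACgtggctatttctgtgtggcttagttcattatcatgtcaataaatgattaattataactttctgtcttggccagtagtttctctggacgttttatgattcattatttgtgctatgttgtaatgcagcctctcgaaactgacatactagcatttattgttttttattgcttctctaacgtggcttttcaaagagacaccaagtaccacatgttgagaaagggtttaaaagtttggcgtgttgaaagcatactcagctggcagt
The Fabp6 matches lay at positions -222 to -210 and -142 to -130 from the start, with 2 mismatches each, AGGTGAATGACCA and AGGTGAATAACCT. The Slc10a2 match lay at positions -224 to -212, with 1 mismatch. Of 32851 mouse promoters of this length, 1.14% held the FXR motif and 1.36% the HNF1 motif at this stringency. Promoter sequence was at hand for 5 of the 6 genes, and Nr1h4 also held an HNF1 match with 2 mismatches at positions -40 to -28. The windows of Nr0b2 and Cyp27a1 held neither motif, and CAAGGTCA, the motif of the nuclear receptor LRH-1 (both strands, no mismatch, 1.56% of promoters), was in none of the 5. A match is a run of letters and not a measured binding site.

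No member passed the test in any of 7 comparisons, and the main feature of the data was a wide spread of Fabp6 and Slc10a2 between pools of the same group. Fabp6 covered a 14.7-fold range over the 12 arrays and Slc10a2 a 4.82-fold range, whereas Fgf15 covered 1.27-fold, Nr0b2 1.57-fold, Cyp27a1 1.67-fold and Nr1h4 1.84-fold. The SD within groups was 1.51 log2 units for Fabp6 and 0.66 for Slc10a2, against a median of 0.14 over all probe sets. Only 17 of 22626 probe sets had a larger SD within groups than Fabp6. They were chosen here after their values were seen, and those with a name were pancreatic enzymes (Cela3b, Cela2a, Cpb1 and probe sets shared by amylase or trypsin genes), immunoglobulin segments such as Igha, the mast cell protease Mcpt1, the peroxidase Lpo and 2210010C04Rik. For Slc10a2 203 probe sets had a larger SD. The other members ranked lower, Nr1h4 above 95.5%, Cyp27a1 above 93.0%, Nr0b2 above 86.8% and Fgf15 above 25.2% of probe sets.

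**Figure D1:**
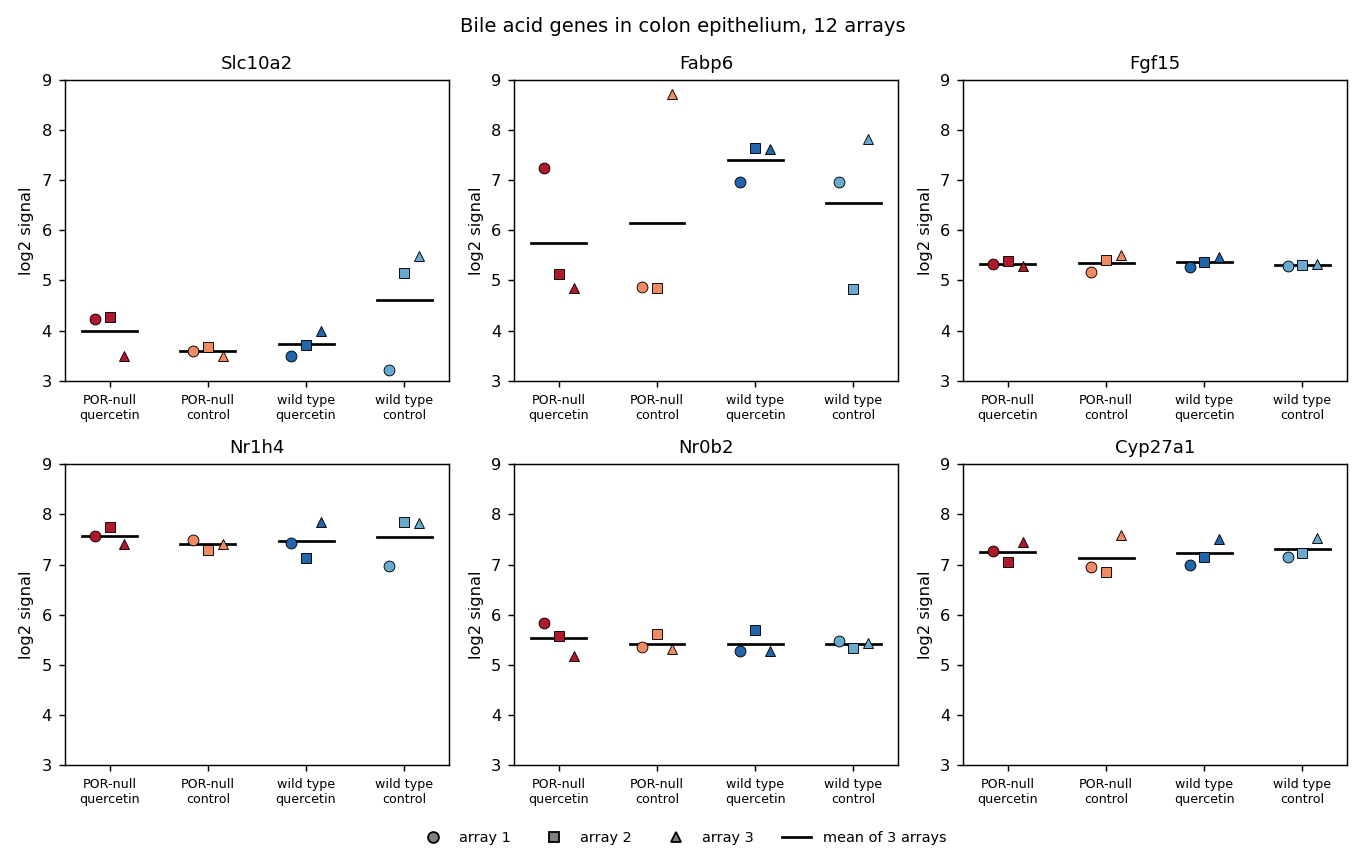
Log2 signal of the 6 genes on each of the 12 arrays, with 1 point per pool of 3 mice, shapes for the array number and a line at the group mean. Fabp6 lies between 4.84 and 5.13 on 5 arrays and between 6.96 and 8.72 on the other 7, Slc10a2 is above 5 only on wild type control arrays 2 and 3, and Fgf15 and Nr0b2 stay between 5.16 and 5.83.

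Slc10a2, the carrier that takes bile acids up, was dim in most pools. Its log2 signal was 4.24, 4.27 and 3.5 in POR-null mice on quercetin, and 3.60, 3.67 and 3.5 in POR-null mice on the control diet. In wild type mice it was 3.5, 3.72 and 4.0 on quercetin and 3.21, 5.14 and 5.48 on the control diet. Wild type control arrays 2 and 3 were the highest of all 12, 0.87 above the next, while array 1 of the same group was the lowest. On 10 of 12 arrays the signal lay below the lower quartile of the array, so that for most pools the probe set gives little more than a bound. In wild type control arrays 2 and 3 it exceeded 33.8% and 40.1% of probe sets.

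On the control diet Slc10a2 averaged 3.59 ± 0.09 in POR-null mice and 4.61 ± 1.22 in wild type mice (SD, n = 3 arrays each). The log2 difference was -1.02 (SE 0.43, 95% interval -1.95 to -0.09), or 0.493-fold. The limma adjusted p was 0.734 over all probe sets, and the groups overlapped. It was the only member with an unadjusted p under 0.05 in this comparison, 1 of 6, where 6.79% of all probe sets were. Without wild type control array 1 the difference was -1.72 and passed (limma, adjusted p = 0.0165, with 41 probe sets passing in all), and without wild type control array 3 it was -0.59. With array weights it was -1.46 and passed (limma, adjusted p = 0.0468), as did 399 of 22626 probe sets. In that setting wild type control array 1 had a low weight, 0.53, against 2.72 for the highest. The call therefore changed with the pools counted and with their weights.

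In wild type mice Slc10a2 averaged 3.74 ± 0.25 on quercetin and 4.61 ± 1.22 on the control diet, a log2 difference of -0.87 (SE 0.43, 95% interval -1.80 to 0.06) that missed the threshold (limma, adjusted p = 0.957). The background here was 5.15% of probe sets with p under 0.05 and 0% past the adjusted threshold. In POR-null mice it averaged 4.0 ± 0.44 on quercetin and 3.59 ± 0.09 on the control diet (0.41, SE 0.43, limma adjusted p = 1). The response differed between genotypes by 1.28 (SE 0.61, 95% interval -0.03 to 2.60, limma adjusted p = 0.998). These comparisons share pools and are not independent. Without wild type control array 3 the wild type response was -0.43 and the difference between genotypes 0.85. Without array 1 these were -1.57 and 1.98, with limma adjusted p of 0.0656 and 0.0983.

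Marker lists also differed in these comparisons, and their part in the Slc10a2 values was not tested. Of 20 small intestine absorptive genes, 17 were lower in POR-null than in wild type mice on the control diet (median -0.44, against 0% of probe sets past the adjusted threshold and a median of -0.01 over all genes). Their list means ran from 7.77 to 8.11 in POR-null and from 8.02 to 8.89 in wild type mice. On those wild type control arrays the list means were 8.89, 8.02 and 8.21, so the array with the highest small intestine signal had the lowest Slc10a2. In the same comparison 12 of 12 smooth muscle genes were higher (median 1.35), 9 of 9 B cell and antigen presentation genes were higher (median 1.17) and 12 of 13 acinar genes were lower (median -1.35). For quercetin in wild type mice 18 of the 20 small intestine genes were lower (median -0.44) and 12 of 13 acinar genes were lower (median -1.06). In that comparison 12 of 12 smooth muscle genes were higher (median 1.87, 9 with an unadjusted p under 0.05). So were 9 of 9 B cell and antigen presentation genes (median 1.47, 6 with an unadjusted p under 0.05). The median over all genes was 0 there, and 5.15% of all probe sets had an unadjusted p under 0.05. Genes of a list were read on the same pools, so these counts are not independent. None of the genes in these lists passed over all probe sets. Array values are log2 signal and have no zero, so no marker is at 0.

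Fabp6, which binds bile acids in the cytosol, split the pools across all 4 groups. Its log2 signal was 7.25, 5.13 and 4.86 in POR-null mice on quercetin, and 4.88, 4.86 and 8.72 in POR-null mice on the control diet. Wild type pools gave 6.96, 7.63 and 7.62 on quercetin and 6.96, 4.84 and 7.82 on the control diet. Values between 4.84 and 5.13 on 5 arrays and between 6.96 and 8.72 on 7 arrays left a gap of 1.83 log2 units, or 3.56-fold, with no array in it. Both levels occurred within 3 of the groups, and the wild type quercetin group held the upper level alone. The lower level exceeded 27.4% to 32.7% of the probe sets of an array, and the upper 69.0% to 90.9%. Without a detection call, whether the lower level is above background cannot be said. Folds between the levels are therefore folds of signal. POR-null mice on the control diet held the highest of the 12 values and both remaining pools of that group were at the lower level.

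Group means of Fabp6 were 5.75 ± 1.31 in POR-null mice on quercetin, 6.15 ± 2.22 in POR-null mice on the control diet, 7.40 ± 0.38 in wild type mice on quercetin and 6.54 ± 1.53 in wild type mice on the control diet (SD, n = 3 arrays each). From low to high the groups ran POR-null quercetin, POR-null control, wild type control and wild type quercetin, and no neighbours in this order differed by more than the larger SD of the pair. The difference furthest from 0 was that between genotypes on quercetin, -1.66 (SE 0.98, 95% interval -3.76 to 0.45, limma adjusted p = 0.998). Of all probe sets 2.39% had p under 0.05 in this comparison and 0% passed. The response to quercetin was -0.41 (SE 0.98) in POR-null mice and 0.86 (SE 0.98) in wild type mice. Without POR-null control array 3 the POR-null response was 0.88, and without wild type control array 2 the wild type response was 0.01. The 95% intervals of both responses, from 0.175-fold to 3.25-fold and from 0.422-fold to 7.84-fold, leave changes of several fold in either direction unresolved.

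Small intestine list means ran from 7.18 to 8.89 on the 7 arrays of the upper Fabp6 level. On the 5 arrays of the lower level they ran from 7.77 to 8.45. The relation of Fabp6 to this list was not tested. POR-null control array 3, with the highest Fabp6, had a small intestine list mean of 7.80 and an acinar mean of 6.15, both near the low end of the 12 arrays (7.18 to 8.89 and 6.00 to 9.74). Wild type quercetin array 1 had Fabp6 at 6.96 and the lowest small intestine mean, 7.18. POR-null quercetin array 2, with acinar genes at 9.74 and small intestine genes at 8.45, had Fabp6 at 5.13. Wild type control array 2 had the second highest Slc10a2, 5.14, and the lowest Fabp6, 4.84.

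**Figure D2:**
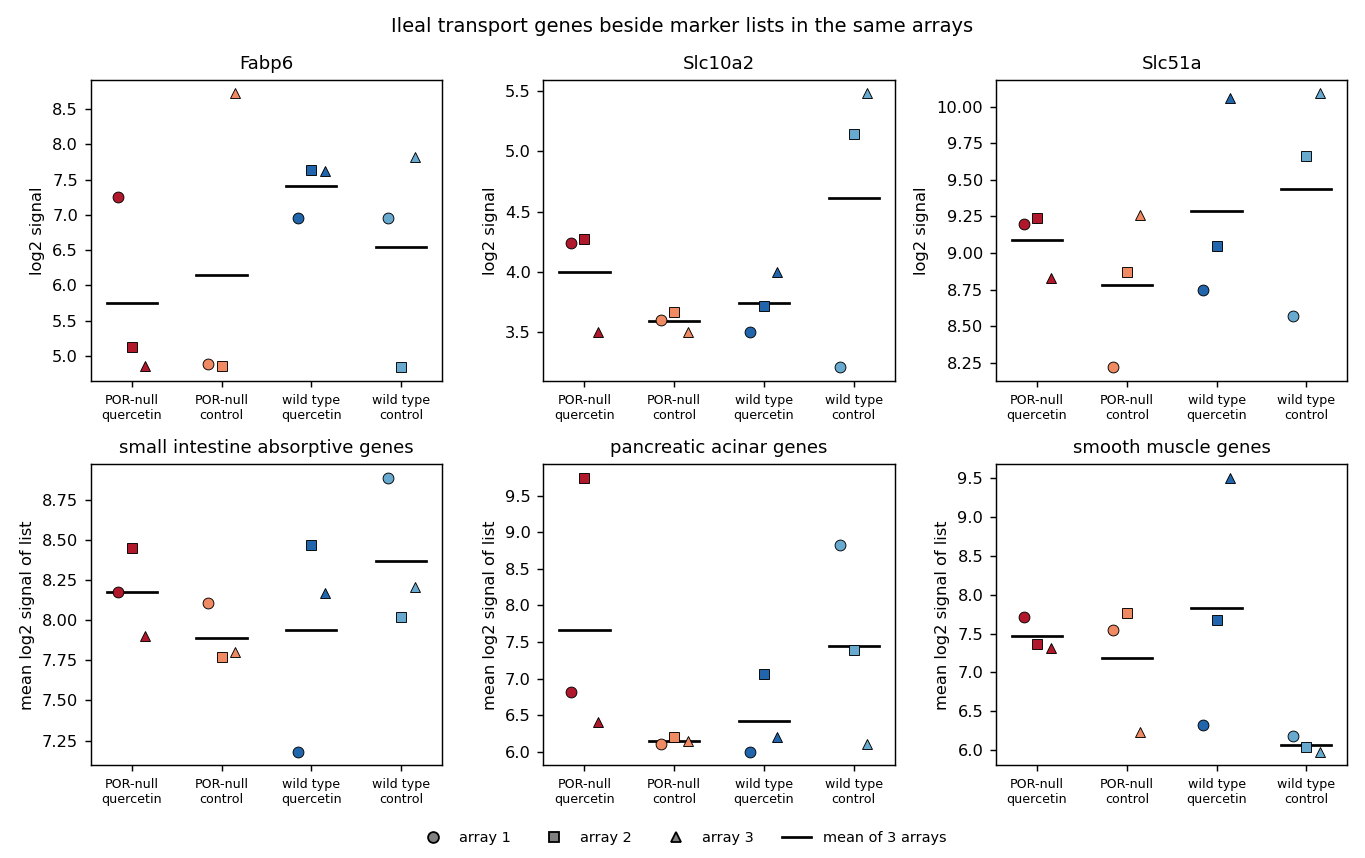
Upper row, log2 signal of Fabp6, Slc10a2 and the exporter gene Slc51a on the 12 arrays, and lower row, mean log2 signal of small intestine absorptive (20 genes), pancreatic acinar (13) and smooth muscle (12) lists on the same arrays, with a line at each group mean. POR-null control array 3 is highest for Fabp6 at 8.72 and stands at 7.80 for the small intestine list, and wild type control array 1 is highest for that list at 8.89 and lowest for Slc10a2 at 3.21.

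Nr1h4, which encodes FXR, was above the median of the array in all 12 pools, with signals that exceeded 69.4% to 82.5% of probe sets. Its log2 signal was 7.57, 7.76 and 7.41 in POR-null mice on quercetin and 7.50, 7.30 and 7.41 in POR-null mice on the control diet. Wild type pools gave 7.43, 7.14 and 7.84 on quercetin and 6.97, 7.85 and 7.83 on the control diet. Wild type control arrays held both the lowest and the highest value, and all groups overlapped. Differences were 0.18 for quercetin in POR-null mice, -0.08 for quercetin in wild type mice, 0.11 between genotypes on quercetin and -0.15 between genotypes on the control diet (SE 0.22 each, limma adjusted p from 0.932 to 1). The 95% intervals of these folds ran from 0.650 at the lowest to 1.57 at the highest.

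Fgf15, the hormone that FXR induces in the ileum, gave a flat and dim signal. Log2 values were 5.32, 5.38 and 5.29 in POR-null mice on quercetin and 5.16, 5.40 and 5.51 in POR-null mice on the control diet. They were 5.27, 5.37 and 5.47 in wild type mice on quercetin and 5.29, 5.31 and 5.32 on the control diet. All 12 lay below the array median, above 34.8% to 40.3% of probe sets, and the highest and lowest were both POR-null control pools. Differences ran from -0.04 to 0.06 over both diets and genotypes (SE 0.10 each, limma adjusted p from 0.951 to 1). The 95% intervals ran from 0.838-fold to 1.21-fold. The files hold no detection call, so whether this signal is above background cannot be said. POR-null control array 3 had the highest Fgf15 and the highest Fabp6 of the 12 arrays. The 5 arrays of the lower Fabp6 level had Fgf15 at 5.16 to 5.40, and the 7 of the upper level at 5.27 to 5.51, a difference that was not tested.

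Nr0b2, the corepressor SHP, was dim as well, with signals above 33.7% to 48.0% of probe sets. Log2 values were 5.83, 5.58 and 5.18 in POR-null mice on quercetin, and 5.36, 5.61 and 5.31 in POR-null mice on the control diet. They were 5.27, 5.69 and 5.28 in wild type mice on quercetin and 5.48, 5.34 and 5.44 on the control diet. The highest and the lowest pool were both POR-null on quercetin. Differences were 0.10 for quercetin in POR-null mice, -0.01 for quercetin in wild type mice, 0.12 between genotypes on quercetin and 0.01 between genotypes on the control diet (SE 0.16 each, limma adjusted p from 0.995 to 1).

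Cyp27a1, which as a mitochondrial enzyme takes its electrons from another donor than POR, was above the array median in all 12 pools. It had log2 signals of 7.27, 7.05 and 7.45 in POR-null mice on quercetin, and 6.96, 6.85 and 7.59 in POR-null mice on the control diet. Wild type pools had 7.00, 7.15 and 7.52 on quercetin and 7.16, 7.24 and 7.53 on the control diet. The array numbered 3 was the highest of its group in all 4 groups, which was the case for no other member and, with any 1 number, for 1191 of 22626 probe sets (5.26%). Differences were 0.12 for quercetin in POR-null mice, -0.09 for quercetin in wild type mice, 0.03 between genotypes on quercetin and -0.18 between genotypes on the control diet (SE 0.19 each, limma adjusted p from 0.896 to 1).

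**Figure D3:**
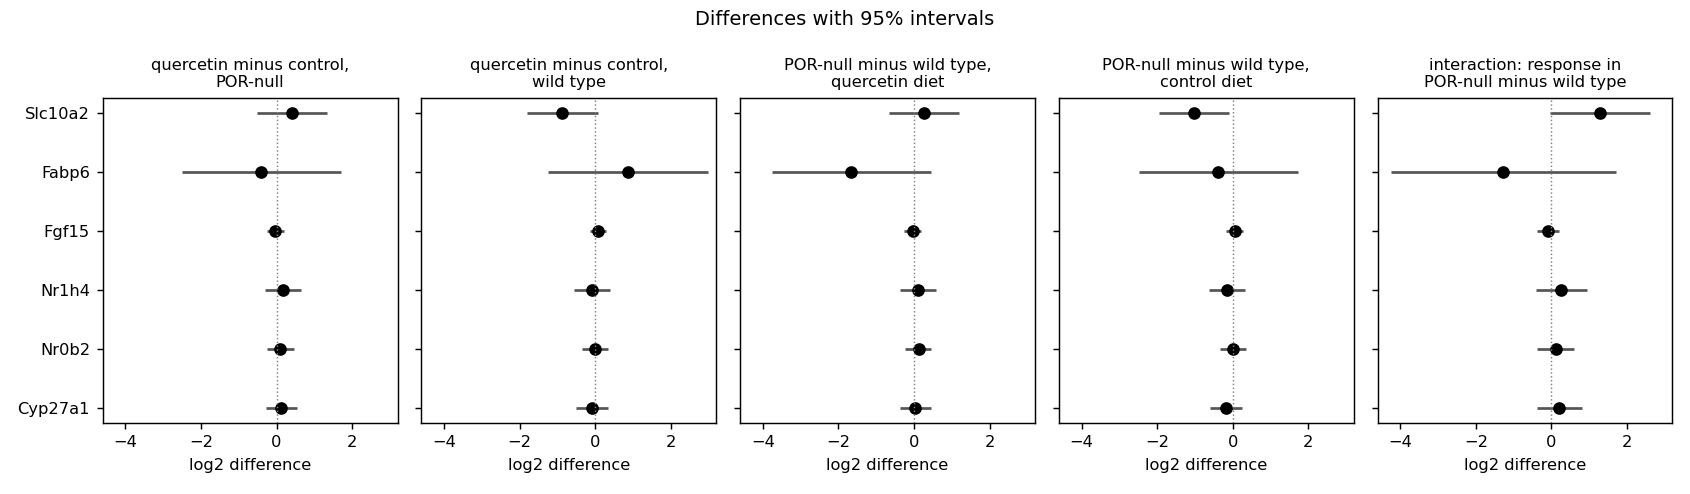
Log2 difference (points) with its 95% interval from limma (lines) for the 6 genes in both quercetin comparisons, both genotype comparisons and the interaction, 3 arrays per group. All intervals include 0 except that of Slc10a2 between genotypes on the control diet (-1.95 to -0.09), and those of Fabp6 are the widest.

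Counted together, 0 of 6 members passed in each comparison, where limma also called 0 of 22626 probe sets (0%). At an unadjusted p under 0.05 there was 1 member between genotypes on the control diet (background 6.79%) and 0 in the other 6 comparisons. The background there was 2.82% for quercetin in POR-null mice, 5.15% for quercetin in wild type mice, 2.39% between genotypes on quercetin, 4.74% for the interaction, 3.25% for the quercetin average and 4.18% for the genotype average. In 0 of 6 members were the groups free of overlap in any of the 4 comparisons of 2 groups, against 6.75%, 9.31%, 6.82% and 9.67% of all probe sets for quercetin in POR-null mice, quercetin in wild type mice, and POR-null against wild type mice on quercetin and on the control diet. With the groups ordered by mean, neighbouring groups differed by less than the larger SD of the pair for all 6 members. Member medians in the order of those comparisons were 0.11, -0.04, 0.07 and -0.16, against 0.01, 0.00, -0.01 and -0.01 over all probe sets.

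Other genes of the pathway were read from fixed lists, with the brightest probe set of a gene standing for it. Among 9 measured transporters 0 passed in any comparison. Slc51a, a subunit of the exporter that moves bile acids from the cell to the blood, was bright and varied between pools. Its log2 signal was 9.20, 9.24 and 8.83 in POR-null mice on quercetin, and 8.22, 8.87 and 9.26 in POR-null mice on the control diet. Wild type values were 8.75, 9.05 and 10.06 on quercetin and 8.57, 9.66 and 10.09 on the control diet. On the control diet it averaged 8.78 ± 0.53 in POR-null and 9.44 ± 0.78 in wild type mice, a log2 difference of -0.66 (SE 0.39, limma adjusted p = 0.781). As for Slc10a2, wild type control arrays 2 and 3 were above array 1, and here wild type quercetin array 3 reached the same level.

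Abcc2, an exporter of conjugates, had the smallest p of the transporters, with 4.30 ± 0.33 on quercetin and 3.85 ± 0.16 on the control diet in POR-null mice (0.45, SE 0.19, limma adjusted p = 1). In wild type mice it had 4.22 ± 0.36 on quercetin and 3.79 ± 0.28 on the control diet (0.43, SE 0.19, limma adjusted p = 0.957). The signal was low and neither difference passed. Abcc3, a basolateral exporter of bile acids, was bright and differed by no more than 0.21 in size in any of the 4 comparisons of 2 groups. No other transporter but Slc51a differed by more than 0.20 in size.

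Of 16 genes for synthesis and conjugation 0 passed. On the control diet 14 were lower in POR-null than in wild type mice (median -0.12, against -0.01 over all genes). In POR-null mice all 16 were higher on quercetin than on the control diet (median 0.06, against 0.01 over all genes). Of these 16 differences 0 had an unadjusted p under 0.05, and some were as small as 0.02, as for Acox2. Both counts rest on the same POR-null control pools and are not independent. The share of all genes with either sign was not counted. On the control diet the very long-chain acyl-CoA synthetase Slc27a2 had log2 signals of 5.61, 5.51 and 5.89 in POR-null mice. Wild type mice on that diet had 6.51, 6.14 and 6.31. These groups did not overlap, which was so for 9.67% of all probe sets in this comparison. The difference was -0.65 (SE 0.15, limma adjusted p = 0.71). Between diets in wild type mice the difference was -0.49 (SE 0.15, adjusted p = 0.948). The peroxisomal enzymes Hsd17b4 (-0.34, SE 0.12) and Amacr (-0.31, SE 0.13) act on the route that shortens the side chain. They had limma adjusted p of 0.712 and 0.726 between genotypes on the control diet. Cyp7a1, the first enzyme of the classical route in liver, differed by -0.12 on its brighter probe set and -0.29 on its dimmer one.

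Of 16 measured receptors and partners 0 passed. On their brightest probe sets, Rxra, the partner of FXR, differed by at most 0.08 in size, Hnf4a by at most 0.03, and the FGF15 receptor Fgfr4 and its co-receptor Klb by at most 0.05 and 0.06 in the 4 comparisons of 2 groups. The gut homeobox factor Cdx2 averaged 9.83 ± 0.32 in POR-null and 10.28 ± 0.42 in wild type mice on the control diet (-0.45, SE 0.24, limma adjusted p = 0.769). Mafg was lower on quercetin in wild type mice (-0.29, SE 0.12, limma adjusted p = 0.957) and in POR-null mice (-0.20, SE 0.12). Its dimmer probe set differed by -0.17 and -0.08. Another probe set of Hnf4a differed by -0.25 for quercetin in wild type mice and 0.36 between genotypes on quercetin. A dimmer probe set of Rxra differed by -0.15 between genotypes on the control diet, and one of Fgfr4 by 0.16 for quercetin in wild type mice. Probe sets of Nr5a2, which encodes LRH-1, did not move alike either: for quercetin in wild type mice the brightest differed by -0.09 and another by -0.66.

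Of 7 genes on the detoxification list 0 passed. The list also held Cyp24a1 and Slc26a3, which are not bile acid enzymes, and Slc26a3 is on the colonocyte list too. The xenobiotic and bile acid hydroxylase Cyp3a11 had the largest differences of the pathway lists. Its log2 signal was 8.57, 9.11 and 8.07 in POR-null mice on quercetin and 8.65, 8.12 and 5.87 in POR-null mice on the control diet. Wild type values were 5.60, 8.50 and 7.22 on quercetin and 9.71, 8.89 and 8.77 on the control diet. On the control diet POR-null minus wild type was -1.58 (SE 0.71, limma adjusted p = 0.734), and quercetin minus control in wild type mice was -2.02 (SE 0.71, adjusted p = 0.952). The signs were opposite elsewhere. Quercetin minus control in POR-null mice was 1.04 (SE 0.71), and POR-null minus wild type on quercetin was 1.48 (SE 0.71, limma adjusted p = 0.998). The interaction was 3.05 (limma adjusted p = 0.998). These comparisons share pools. Small intestine list means were 7.18 on wild type quercetin array 1, which had the lowest Cyp3a11, 7.80 on POR-null control array 3, which had the next lowest, and 8.89 and 8.45 on the arrays with the highest 2 values, wild type control array 1 and POR-null quercetin array 2. POR-null control array 2 had a list mean of 7.77, below that of array 3, with Cyp3a11 at 8.12. The part of the small intestine list in the Cyp3a11 values was not tested. Ugt2b5, a glucuronosyltransferase of a family of closely related genes, had log2 signals of 5.61, 5.54 and 5.59 in POR-null mice and 5.25, 7.14 and 6.91 in wild type mice on the control diet. The difference was -0.85 (SE 0.41, limma adjusted p = 0.734). As for Slc10a2, wild type control arrays 2 and 3 were above all POR-null pools of that diet, and array 1 was below them. Sult2b1 was higher in POR-null than in wild type mice, by 0.35 on the control diet and 0.42 on quercetin (SE 0.16 each). The limma adjusted p were 0.734 and 0.998. On quercetin its groups did not overlap, which was so for 6.82% of all probe sets in this comparison.

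**Figure D4:**
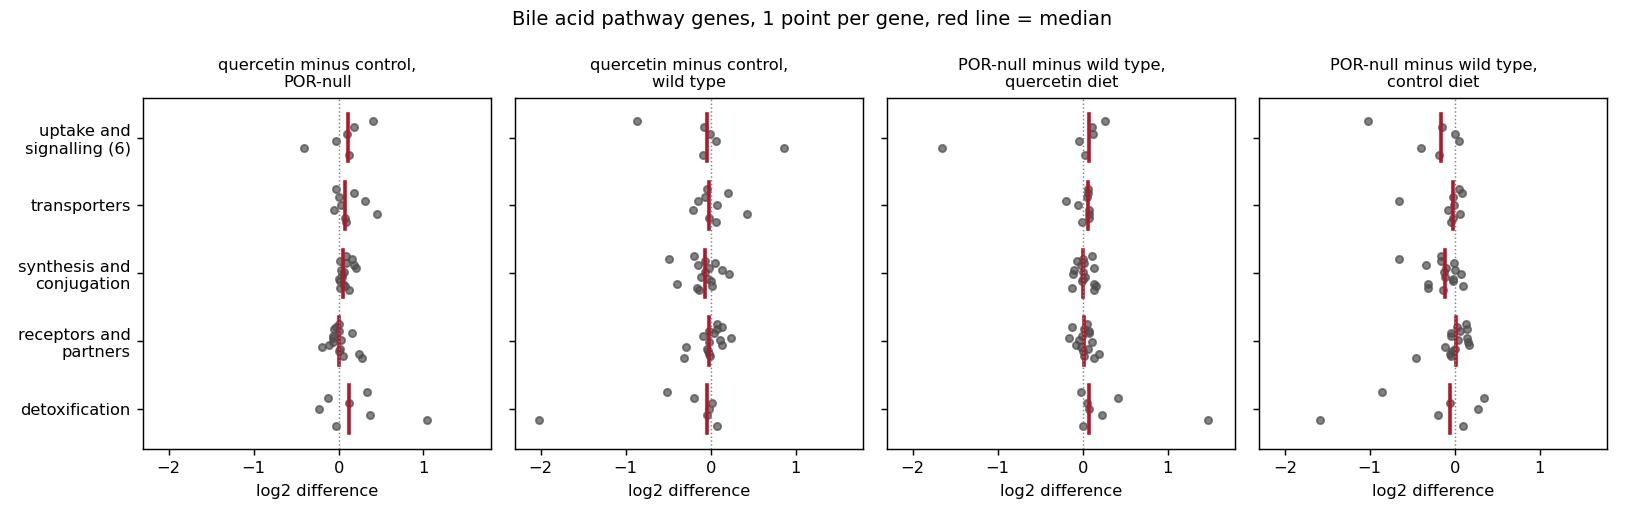
Log2 differences of single genes (points, brightest probe set of a gene) in 5 bile acid gene lists for the 4 comparisons of 2 groups. The list median is a red line, and the detoxification list also holds Cyp24a1 and Slc26a3, which are not bile acid enzymes. List medians lie between -0.16 and 0.12, and the points beyond 0.80 on either side of 0 are Cyp3a11 and Ugt2b5 among the detoxification genes and Fabp6 and Slc10a2 among the members.

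Among 12392 other genes, the patterns most like each member over the 12 arrays were found by Pearson correlation, as a description only. For Slc10a2 they were Sar1b, a GTPase of the secretory pathway (r = 0.97), Atxn7l1 (0.96) and Adh5, an alcohol dehydrogenase (0.95). Without wild type control arrays 2 and 3 these r were 0.86, 0.84 and 0.94. Adh5 covered a 2.60-fold range, with 9.21 and 8.91 on wild type control arrays 2 and 3, 7.83 on array 1 of that group, and 8.02 to 8.63 on the other 9 arrays. For Fabp6 they were the transaminase gene Aadat (0.95), Wdr43 (0.94) and Taf8 (0.93), which covered ranges of 1.21-fold to 1.31-fold. As the Fabp6 values form separate levels, r was also taken over the 7 arrays of the upper level alone, where it was 0.87 for Aadat, 0.74 for Wdr43 and 0.80 for Taf8. For Nr1h4 they were Ntsr1 (0.93), Ccs and Dok1 (0.88 each), for Fgf15 Tbx6 (0.93), Il1f9 and Ears2 (0.90 each), for Nr0b2 Kdm5c, Lrrfip2 (0.88 each) and Bcat2 (0.86), and for Cyp27a1 Il20, Npvf (0.93 each) and 2700097O09Rik (0.91). Without the 2 arrays furthest from the median of the member, r was 0.68 for Il1f9, 0.72 for Ears2 and 0.68 for Bcat2. For the other genes named for Nr1h4, Fgf15, Nr0b2 and Cyp27a1 it was then 0.81 to 0.94. None of the 18 genes was another member or a gene of the bile acid lists. Both genes of a pair were read on the same arrays.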

How the data were processed

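Biotin-labelled RNA of pooled colon epithelium was hybridised to Affymetrix 430A arrays, per the labels. The deposited table holds log2 signal from 2.70 to 14.09. MAS5 and RMA both appear among the tools in the submitters' processing notes, but which of them made the values is not given in the sources used here, and the log base was read from the range. The values were used as the authors deposited them. Of 22690 rows 64 Affymetrix controls were left out, with no filter on signal, and names came from the platform annotation (20380 probe sets with 1 symbol, 691 with several, 1555 with none).

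All 12 arrays entered 1 fit of 4 group means in limma 3.58.1 (R 4.3.3; lmFit, eBayes with trend, 12.91 degrees of freedom), tested two-sided in 7 contrasts with Benjamini-Hochberg adjustment over 22626 probe sets and a threshold of 0.05. The number of arrays limits the precision. The fit was tested on simulated data. Named genes are all members, up to 4 genes of the smallest p per list with a few fixed ones, and the 3 genes of highest correlation with each member. Cyp7a1, Nr5a2, Igha, Mcpt1, Lpo and the other genes of large spread were named after their values were seen. Members and lists were chosen with earlier results of these data known. The replicate numbers are not stated to mark a litter, day or batch, and no pairing entered the fit. Alternatives were the variance trend, array weights, quantile normalization, a filter on dim probe sets, gene means, fits of the compared groups alone, a replicate block and leaving out each array.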

Additional observations from a re-analysis of the deposited data

How the results depend on the processing

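Of 255 member differences recomputed under other settings, 5 changed sign and 1 passed the threshold, and of 504 with a single array left out 55 changed sign and 1 passed. The exceptions past the threshold were those of Slc10a2 between genotypes on the control diet, with array weights (-1.46, limma adjusted p = 0.0468) and without wild type control array 1 (-1.72, adjusted p = 0.0165), so that the count of members past the threshold there was 1 with array weights and 0 to 1 with single arrays left out. The highest weights, 2.72 and 2.49, went to POR-null control array 2 and wild type control array 3. The lowest, 0.45 and 0.53, went to POR-null control array 3 and wild type control array 1. Both settings that brought Slc10a2 past the threshold thus counted wild type control array 1 less or not at all. The cause of the call was not tested. Over all 12 omissions the Slc10a2 difference ran from -1.72 to -0.59. Over all probe sets, array weights called 399 in that comparison and 2 for quercetin in wild type mice, and both the fit of the compared groups alone and the replicate block called 1 between genotypes on quercetin. With single arrays left out the calls over all probe sets were 0 to 3 for quercetin in wild type mice, 0 to 1 for quercetin in POR-null mice, 0 to 41 for POR-null against wild type mice on the control diet, 0 to 1 for POR-null against wild type mice on quercetin, 0 to 1 for the interaction, 0 to 1 for the quercetin average, 0 to 2 for the genotype average. Signs turned with array weights for Fabp6 under quercetin in POR-null mice (0.46), for Nr0b2 under quercetin in wild type mice (0.03) and in the interaction (-0.03) and for Nr1h4 in the quercetin average (-0.03), and with quantile normalization for Fgf15 in the quercetin average (0.00). With single arrays left out, signs turned for these members, given with the range over the 12 omissions. For quercetin in wild type mice they turned for Nr1h4 (-0.37 to 0.08), Nr0b2 (-0.15 to 0.06) and Cyp27a1 (-0.24 to 0.02). For quercetin in POR-null mice they turned for Fabp6 (-1.16 to 0.88), Fgf15 (-0.12 to 0.05), Nr0b2 (-0.05 to 0.28) and Cyp27a1 (-0.02 to 0.35). For POR-null against wild type mice on the control diet they turned for Fabp6 (-1.67 to 0.26), Fgf15 (-0.03 to 0.15), Nr1h4 (-0.44 to 0.00) and Nr0b2 (-0.09 to 0.06). For POR-null against wild type mice on quercetin they turned for Fgf15 (-0.09 to 0.01), Nr1h4 (-0.05 to 0.30), Nr0b2 (-0.03 to 0.29) and Cyp27a1 (-0.08 to 0.18). For the interaction they turned for Fabp6 (-2.02 to 0.01) and Nr0b2 (-0.04 to 0.29). For the quercetin average they turned for Fabp6 (-0.20 to 0.87), Fgf15 (-0.03 to 0.06), Nr1h4 (-0.10 to 0.13), Nr0b2 (-0.03 to 0.14) and Cyp27a1 (-0.06 to 0.13). For the genotype average they turned for Fgf15 (-0.03 to 0.05), Nr1h4 (-0.16 to 0.07), Nr0b2 (-0.01 to 0.15) and Cyp27a1 (-0.19 to 0.00). The causes were not tested. The replicate block turned no sign of a member and brought none past the threshold. Same-numbered arrays of different groups deviated with a median correlation of 0.04 (from -0.19 to 0.26, 6 of 18 above 0.1). For other pairs it was -0.02 (9 of 36 above 0.1). As not every same-numbered pair was above 0.1, the numbers were not taken to pair the pools. A rule that asks this of every pair cannot decide whether the pools were paired. For 8 of 12 arrays the closest array of another group had their own number, which 3 of the 9 candidates for each array carry. Whether arrays of the same number share something was not tested. Slc10a2, Fgf15 and Nr0b2 fell below the filter on dim probe sets and have no value there. Their low signal limits what can be seen of them.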
